A study of Homo sapiens with 15 samples.

Results

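Δ22 is a deletion form of EWS/FLI, the fusion oncoprotein of Ewing sarcoma, that lacks nearly all of the EWS portion and keeps the FLI portion. The 6 libraries described here, out of 15 in the experiment, are the 3 Δ22 libraries and the 3 iEF libraries, chosen by the condition in their labels. All 15 were made from A673, an established Ewing sarcoma cell line, and all carried a retroviral shRNA and a retroviral expression construct. The iEF cells carried the shRNA against EWS/FLI with an empty vector, and the Δ22 cells the same shRNA with the Δ22 cDNA. The other conditions were iLuc (shRNA against luciferase with an empty vector, so that endogenous EWS/FLI, endo-EF, remained), WT-EF (knockdown with wild-type EWS/FLI) and DAF (knockdown with a form in which tyrosines of part of the EWS portion were changed to alanine). Cells received the shRNA on day 1, then the cDNA on day 5, and stayed under puromycin (2 µg/mL) and hygromycin B (400 µg/mL) until day 16. All conditions share the 1 cell line. The study describes its design per replicate, each with its own knockdown and rescue. Replicate number was a term in the fit. The p-values therefore measure the spread left after differences between replicate numbers were taken out, pooled over the 15 libraries of A673.

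In EWS/FLI, the FLI portion carries the ETS domain, which binds DNA at GGAA cores, and the disordered EWS portion supplies the activity that recruits transcriptional regulators. FLI1 itself is an ETS factor of blood vessels and platelet precursors. The comparison of Δ22 with iEF asks what the DNA-binding portion changes on its own when the endogenous fusion has been depleted.

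The knockdown and the construct were first followed through *FLI1*, whose gene-level count cannot tell endogenous *FLI1*, the fusion transcript and the constructs apart. *FLI1* (ENSG00000151702, GRCh37 chr11:128556430-128683162) stood at 12.9, 15.5 and 15.3 CPM (read counts scaled to library size and composition) in iEF replicates 1 to 3 and at 24.4, 32.9 and 36.2 CPM in Δ22. In the other conditions it ran from 47.8 to 52.5 CPM in iLuc, from 16.0 to 18.7 CPM in WT-EF and from 22.1 to 27.3 CPM in DAF. The Δ22 libraries thus lay above every iEF library and below every iLuc library, with a log2 fold change against iEF of 1.09 ± 0.10 (SE) and adjusted p = 0.000446. *FLI1* was higher in iLuc than in iEF by 1.77 on the log2 scale (adjusted p = 7.93e-09). *EWSR1*, the source of the EWS portion, was at 320, 308 and 340 CPM in iEF and at 286, 267 and 301 CPM in Δ22 with all Δ22 below all iEF libraries, and did not pass the test (log2 fold change -0.18, adjusted p = 0.218).

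Depth was similar, from 28659475 to 41859880 counts over the 15 libraries and from 30347437 to 41859880 over the 6 compared. One library stood apart: Δ22 replicate 3 carried 11900 CPM over the 58 interferon-stimulated genes tested, against 2541 and 3256 CPM in Δ22 replicates 1 and 2 and 3010 to 5331 CPM in iEF. That library is described separately. Of 93 named genes that passed the test, 20 still passed without it, and for the main ones the adjusted p without it is given beside the call. Markers of other cell types were low in all 6 libraries, with summed levels of 1.96 to 5.72 CPM over 7 leukocyte markers and 8.33 to 12.7 CPM over 6 epithelial markers tested, and none of these 13 passed the test with edgeR. At an unadjusted p under 0.05 there were 3 leukocyte and 0 epithelial markers, and DESeq2 called 1 and 0. The highest leukocyte marker in Δ22 was *CD14* at 2.54 CPM.

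Of 28793 genes tested, 375 (1.30%) passed an adjusted p of 0.05, 136 of them higher (0.472%) and 239 lower (0.830%) in Δ22 than in iEF. With a change of over 2-fold required as well, 73 were higher (0.254%) and 59 lower (0.205%). In the same fit, 11992 genes (41.6%) passed between iLuc and iEF, 8602 (29.9%) between WT-EF and iEF and 3223 (11.2%) between DAF and iEF. Among called genes the rises were larger than the falls, with a median log2 fold change of 1.07 among the higher genes and -0.67 among the lower ones. Some genes called higher averaged few counts over the 6 libraries, such as *GCKR* at 10.2 and *MAF* at 8.8. All Δ22 libraries lay above all iEF libraries for 124 of the 136 higher genes and below them for 233 of the 239 lower genes, where the same separation was met by 7.72% and 8.63% of all genes tested. Protein-coding genes made up 338 of the 375. Leaving out Δ22 replicate 3 reduced the calls to 22 higher and 49 lower genes, of which 22 and 45 had been called with it. All 375 genes kept their direction, though they were called on fits that included the remaining libraries, so few could reverse. Leaving out Δ22 replicate 2 left 15 higher and 39 lower genes, so the number of calls also rested on that library. Without the term for replicate number, 50 genes were higher and 125 lower. Other settings gave more calls, with 463 higher and 615 lower genes by DESeq2, 490 and 609 by DESeq2 on the authors' ComBat-adjusted counts, and 784 and 730 by edgeR with no filter on low counts. The 463 and 615 are the totals for the DESeq2 counts given for gene lists. For list counts at an unadjusted p under 0.05, no share of all genes is given, so those counts have no background.

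**Figure D1:**
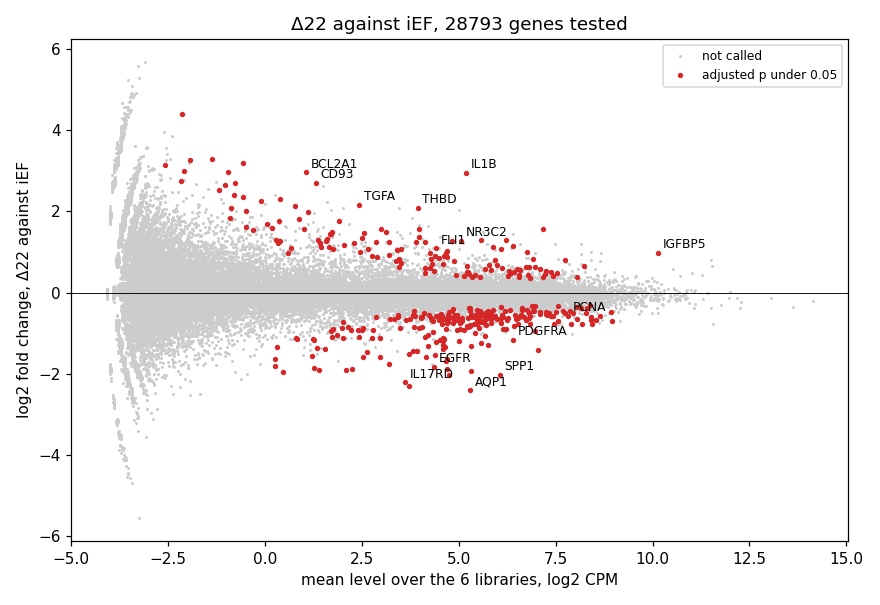
Log2 fold change of Δ22 against iEF (vertical axis) by mean level over the 6 libraries in log2 CPM (horizontal axis) for 28793 genes, with the 375 that passed an adjusted p of 0.05 in red. The genes called higher spread upward to larger changes than those called lower, most of which lie between 0 and -1.

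Among the 12 largest falls, *AQP1*, the aquaporin-1 water channel (ENSG00000240583, GRCh37 chr7:30951468-30965132), was at 67.2, 113 and 91.0 CPM in iEF and at 20.8, 15.6 and 15.5 CPM in Δ22. The groups were far apart, and the fall was 2.39 ± 0.28 on the log2 scale (adjusted p = 0.00197; 0.0125 without Δ22 replicate 3). Among 6 aquaporins tested *AQP3*, which also carries glycerol, went the other way, from 0.841, 0.809 and 0.698 CPM in iEF to 1.38, 2.50 and 1.72 CPM in Δ22 (log2 fold change 1.21 ± 0.26, adjusted p = 0.0367, or 0.125 without Δ22 replicate 3).

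Of the feedback inhibitors that RAS-ERK signalling induces, 2 of 20 tested fell with edgeR, against 0.830% of all genes, while 6 had an unadjusted p under 0.05 and DESeq2 called 4. *IL17RD* (also known as SEF, which restrains FGF signalling; GRCh37 chr3:57124010-57204334) was at 20.4, 33.5 and 26.3 CPM in iEF and at 6.80, 4.59 and 5.72 CPM in Δ22. No Δ22 library came near the lowest iEF library, and the log2 fold change was -2.21 ± 0.24 (adjusted p = 0.00165; 0.0125 without Δ22 replicate 3). *SPRY1*, a Sprouty inhibitor, was at 22.6, 53.3 and 25.9 CPM in iEF and at 10.9, 15.7 and 16.9 CPM in Δ22 (log2 fold change -1.21 ± 0.23, adjusted p = 0.0197, or 0.0699 without Δ22 replicate 3). The list as a whole did not fall: 15 of its 20 members had a positive fold change, with a median of 0.28 against 0.01 over all genes. *IL17RD* in Δ22 was lower than in WT-EF, at 6.26 to 11.4 CPM (log2 difference -0.73, adjusted p = 0.0262), and did not pass against iLuc, at 3.76 to 4.75 CPM (0.48, adjusted p = 0.12).

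*EGFR*, the epidermal growth factor receptor, singled out after its values were seen, fell from 38.8, 33.2 and 44.3 CPM in iEF to 13.4, 7.35 and 13.4 CPM in Δ22 (log2 fold change -1.82 ± 0.25, adjusted p = 0.00421; 0.0197 without Δ22 replicate 3). *TGFA*, which encodes a ligand of that receptor, was among the 12 largest rises, at 3.44, 1.52 and 2.82 CPM in iEF and 11.2, 12.5 and 11.01 CPM in Δ22 (log2 fold change 2.16 ± 0.39, adjusted p = 0.0142, or 0.0637 without Δ22 replicate 3). Receptor and ligand moved in opposite directions in all 3 replicate numbers. Neither the ligand nor the receptor was high where endo-EF remained: in iLuc *TGFA* was at 0.275 to 0.365 CPM and *EGFR* at 0.0896 to 0.367 CPM.

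*SPP1*, which encodes osteopontin, fell from 126, 177 and 102 CPM in iEF to 54.0, 43.2 and 16.9 CPM in Δ22 (log2 fold change -2.02 ± 0.32, adjusted p = 0.00823, or 0.0525 without Δ22 replicate 3). *COL11A1*, a fibrillar collagen chain of cartilage, fell from 52.3, 88.3 and 93.1 CPM to 24.2, 24.9 and 14.8 CPM (-1.93 ± 0.39, adjusted p = 0.0259, or 0.139 without Δ22 replicate 3). *FST*, which encodes follistatin, the activin antagonist, was the 1 called gene among 26 TGF-beta and BMP genes tested, where 0.830% of all genes were called lower. It was at 88.9, 31.1 and 55.4 CPM in iEF and 37.8, 10.3 and 6.22 CPM in Δ22. Its groups overlapped, because Δ22 replicate 1 lay above iEF replicate 2, but it was lower within each replicate number (-2.04 ± 0.40, adjusted p = 0.0207, or 0.137 without Δ22 replicate 3). The others of the 12 were *LYPD6B*, *OMD* (osteomodulin, a bone matrix protein), *SOD3* (the extracellular superoxide dismutase), *ITGA8* (integrin alpha 8), *NPTX2* (a secreted neuronal pentraxin), *CA12* (a carbonic anhydrase of the cell surface) and *DRD1* (a dopamine receptor), with log2 fold changes from -1.86 for *DRD1* to -2.31 for *LYPD6B* and adjusted p from 0.00421 for *DRD1* to 0.0474 for *NPTX2*. Without Δ22 replicate 3, *ITGA8*, *CA12* and *DRD1* passed, and *LYPD6B*, *OMD*, *SOD3* and *NPTX2* had adjusted p from 0.0562 to 0.24. *LYPD6*, a related gene that lies near *LYPD6B* on chromosome 2 and was named after its values were seen, fell as well, by 1.76 ± 0.26 (adjusted p = 0.00566).

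Some mesenchymal genes, chosen after their values were seen, fell as well. *PDGFRA*, a platelet-derived growth factor receptor, was at 112, 160 and 110 CPM in iEF and 76.8, 50.5 and 48.0 CPM in Δ22, and *PDGFRB*, its partner receptor, at 24.8, 58.6 and 42.5 CPM and 8.82, 16.4 and 27.1 CPM. The 2 receptors fell by 1.16 ± 0.23 and 1.34 ± 0.29 on the log2 scale (adjusted p = 0.0211 and 0.0358, or 0.108 and 0.0677 without Δ22 replicate 3), and the Δ22 and iEF libraries of *PDGFRB* overlapped. *TWIST1*, a mesenchymal transcription factor, fell from 34.8, 45.3 and 32.2 CPM to 21.5, 16.0 and 11.5 CPM (-1.19 ± 0.21, adjusted p = 0.0138, or 0.0717 without Δ22 replicate 3). The basement membrane gene *NID1* fell by 1.30 ± 0.18 (adjusted p = 0.00421; 0.0125 without Δ22 replicate 3), and *AEBP1*, *PCOLCE*, *FBLN1*, *SULF1* and *CD248* fell by 0.88 to 1.44, of which *PCOLCE*, *SULF1* and *CD248* did not pass without that library (adjusted p = 0.106, 0.193 and 0.0691). Since these genes were chosen for their fall, the group is a description. Not all such genes fell: *VIM*, *TNC* and *COL5A3* had log2 fold changes of -0.004, 0.022 and 0.66 and were not called. The falls above were not particular to Δ22. Each of those falling genes except *CD248* (adjusted p = 0.0906) was also called lower in DAF than in iEF. In DAF *PDGFRA* and *TWIST1* changed by -2.101 and -0.949 (adjusted p = 8.14e-05 and 0.00924). None of the falling genes passed between Δ22 and DAF. In WT-EF and iLuc *PDGFRA* was lower still, at -4.877 and -7.49 against iEF. *PDGFRB* passed in neither (adjusted p = 0.0729 and 0.07). Of 18 extracellular proteases and inhibitors tested, *MMP2* was the 1 that passed, where 0.830% of all genes were called lower. It fell from 123, 151 and 133 CPM in iEF to 86.2, 80.6 and 86.3 CPM in Δ22 (-0.68 ± 0.14, adjusted p = 0.0265, or 0.113 without Δ22 replicate 3).

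**Figure D2:**
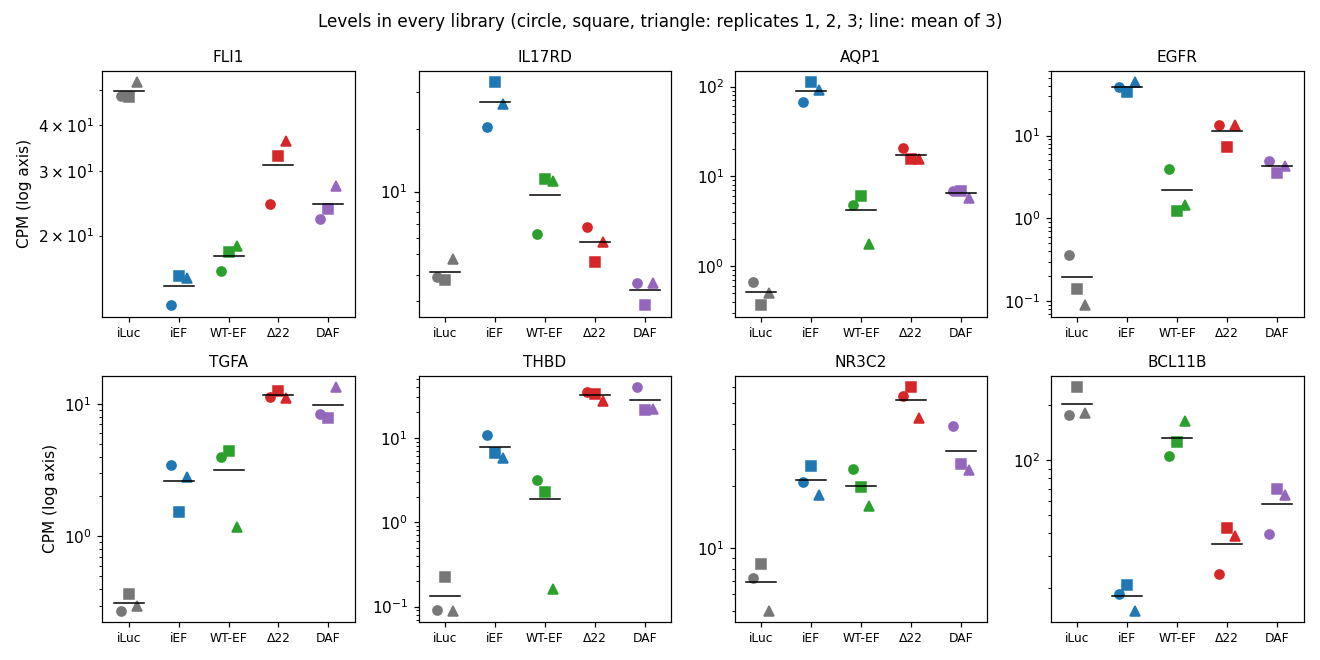
Levels of 8 genes in each of the 15 libraries (CPM on a log axis, whose range differs between panels; lines are means of 3). The Δ22 libraries lie below iEF for *IL17RD*, *AQP1* and *EGFR* and above it for *FLI1*, *TGFA*, *THBD*, *NR3C2* and *BCL11B*.

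Among the rises, several genes are best known from blood vessel endothelium. *THBD* (thrombomodulin, an anticoagulant receptor) was at 10.8, 6.54 and 5.82 CPM in iEF and at 35.2, 32.9 and 27.0 CPM in Δ22, a log2 fold change of 2.10 ± 0.39 (adjusted p = 0.0149). *CD93*, a receptor of endothelial and myeloid cells that lies 29688 bases from *THBD* on chromosome 20, rose from 0.657, 1.18 and 1.10 CPM to 2.84, 6.05 and 12.4 CPM (2.71 ± 0.43, adjusted p = 0.00848). *ACVRL1*, the ALK1 receptor of endothelial cells, rose from 0.342, 1.04 and 0.785 CPM to 1.05, 2.22 and 4.54 CPM (1.75 ± 0.32, adjusted p = 0.0146). The Δ22 libraries lay above all iEF libraries for all 3 of these genes. The rises were not particular to Δ22. In DAF the 3 genes rose by 1.85, 3.235 and 3.46 against the same iEF libraries (adjusted p = 0.00582, 0.000284 and 1.93e-05). Between Δ22 and DAF, *THBD* and *CD93* did not pass (adjusted p = 0.913 and 0.728), and *ACVRL1* was lower in Δ22 (adjusted p = 0.00633). In the list of genes that normal FLI1 regulates in endothelium and megakaryocytes, *KDR*, the VEGF receptor, was the 1 called of 25 tested, from 11.7, 13.2 and 9.42 CPM to 23.6, 33.7 and 23.3 CPM (1.25 ± 0.25, adjusted p = 0.025). The median of that list was 0.16, and 10 of its 25 members had a negative fold change. In DAF *KDR* rose by 1.04 against iEF (adjusted p = 0.0153), and it did not pass between Δ22 and DAF (adjusted p = 0.881). *VEGFA*, which encodes the ligand of *KDR*, rose from 143, 137 and 138 CPM to 196, 178 and 229 CPM (0.52 ± 0.10, adjusted p = 0.0222), the 1 called of 27 hypoxia and glycolysis genes. Of all genes tested, 0.472% were called higher. Without Δ22 replicate 3 none of *THBD*, *CD93*, *ACVRL1*, *KDR* and *VEGFA* passed, with adjusted p between 0.0525 and 0.129 and log2 fold changes of 0.49 to 2.39. That fit lost 1 of 3 Δ22 libraries. Of vascular genes singled out after their values were seen, *CALCRL* (the calcitonin receptor-like receptor) rose from 4.05, 7.12 and 4.97 CPM to 7.30, 24.8 and 16.01 CPM, and *SELE* (E-selectin) was near 0 in iEF, at most 0.0675 CPM, and at 0.117, 0.600 and 1.72 CPM in Δ22 (adjusted p = 0.0174 and 0.0132; 0.0726 and 0.0907 without Δ22 replicate 3). *SELE* averaged only 13 counts over the 6 libraries, and its rise was largest in Δ22 replicate 3. Both genes rose in DAF as well, by 2.14 and 4.28 against iEF (adjusted p = 0.000281 and 0.00288).

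*NR3C2*, the mineralocorticoid receptor, singled out after its values were seen, rose evenly in the replicates: it was at 21.02, 24.96 and 18.1 CPM in iEF and at 54.1, 59.9 and 42.6 CPM in Δ22 (1.28 ± 0.14, adjusted p = 0.00165; 0.0125 without Δ22 replicate 3). It was higher in Δ22 than in DAF, at 24.0 to 38.9 CPM (log2 difference 0.83, adjusted p = 0.00876), and than in WT-EF, at 15.9 to 24.0 CPM (1.39, adjusted p = 6.19e-06). *IGFBP5*, an insulin-like growth factor binding protein, rose from 968, 977 and 553 CPM to 1617, 1930 and 1313 CPM (0.98 ± 0.13, adjusted p = 0.00421; 0.0289 without Δ22 replicate 3).

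The rest of the 12 largest rises were *BCL2A1*, *IL1B*, *TFEC* (a transcription factor of the MITF family), *GASK1B*, *ZNF185*, the non-coding RNA LINC02154, the unnamed gene ENSG00000259041 and the pseudogene *SORD2P*, whose reads may be shared with *SORD*. Their log2 fold changes ran from 1.58 for *ZNF185* to 2.96 for *BCL2A1*, and without Δ22 replicate 3 *TFEC*, *GASK1B*, *ZNF185* and *SORD2P* had adjusted p from 0.0577 to 0.15. *BCL2A1*, an inhibitor of apoptosis, was at 0.709, 0.641 and 1.16 CPM in iEF and at 1.05, 5.95 and 19.2 CPM in Δ22. Its groups overlapped and 1 library carried most of the rise (adjusted p = 0.0351; 0.214 without Δ22 replicate 3). It was the 1 called of 17 BCL2 family genes, where 0.472% of all genes were called higher.

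Replication genes fell together. *MCM2*, *MCM3*, *MCM4*, *MCM5*, *MCM6* and *MCM7*, the subunits of the replicative helicase, were all lower in Δ22, as were *MCM10*, *GINS2* and *GINS3* (helicase activation), *PCNA* (the sliding clamp), *RFC4* (the clamp loader) and *TYMS* (thymidylate synthesis). In all, 13 of 33 DNA replication genes tested were called lower, where 0.830% of all genes were called lower, and all 33 had a negative fold change, with a median of -0.41 against 0.01 over all genes. *MCM6* was at 110, 108 and 115 CPM in iEF and at 74.1, 61.1 and 77 CPM in Δ22 (-0.65 ± 0.09, adjusted p = 0.00421; 0.0289 without Δ22 replicate 3). *PCNA* was at 283, 256 and 294 CPM in iEF and at 201, 177 and 183 CPM in Δ22 (-0.57 ± 0.09, adjusted p = 0.00702, or 0.052 without Δ22 replicate 3). The highest Δ22 library was below the lowest iEF library for both, and for 25 of the 33 genes, where 8.63% of all genes tested met the same separation. Within replicate numbers the list medians were -0.32, -0.28 and -0.57 on the log2 scale, with 33, 32 and 33 of the 33 genes below the iEF partner. Without Δ22 replicate 3 the median was -0.34 and 1 gene was called, and without Δ22 replicate 2 it was -0.42 and 1 gene was called.

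**Figure D3:**
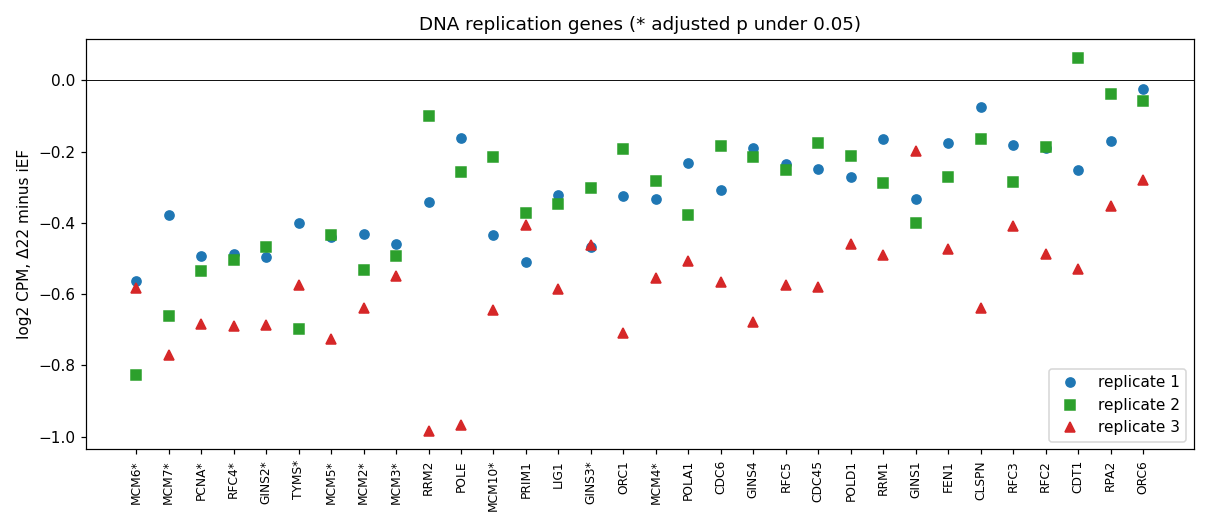
Difference in log2 CPM between Δ22 and iEF of the same replicate number for 32 of the DNA replication genes, ordered by fitted change. Nearly every point lies below 0 in each replicate, and the 12 genes marked with an asterisk passed an adjusted p of 0.05.

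Mitosis genes showed the same direction, with all 30 tested at a negative fold change (median -0.42) and within-number medians of -0.23, -0.27 and -0.75. With edgeR *NDC80*, a kinetochore protein, was the 1 called of the 30, where 0.830% of all genes were called lower. All 30 had an unadjusted p under 0.05, a threshold for which no share of all genes is given. DESeq2 called 16 of the 30, and over all genes it called 615 lower. *NDC80* fell from 198, 176 and 207 CPM in iEF to 163, 130 and 116 CPM in Δ22 (-0.51 ± 0.12, adjusted p = 0.0476, or 0.242 without Δ22 replicate 3). *CDKN1A*, the p21 inhibitor of the cell cycle, rose from 89.9, 77.6 and 109 CPM to 121, 139 and 242 CPM (0.82 ± 0.15, adjusted p = 0.0148, or 0.093 without Δ22 replicate 3). Histone genes of the chromosome clusters, a group chosen after the values were seen, fell too: 29 of the 32 symbols tested had a negative fold change and 11 were called lower, where 0.830% of all genes were, among them *H1-1* from 37.8, 35.2 and 37.1 CPM to 18.3, 17.7 and 13.7 CPM (-1.15 ± 0.18, adjusted p = 0.00758, or 0.0517 without Δ22 replicate 3). The 32 were found by their current symbols, so cluster histone genes without such a symbol were not counted. *HIST1H4B*, under an older symbol, was outside the 32 and was also called lower (-0.65, adjusted p = 0.00421). Histone genes are near-identical copies whose reads may be shared. The 8 other S phase genes named after their values were seen, *PCLAF*, *TK1*, *DUT*, *UNG*, *SKP2*, *CDKN2C*, *CHAF1B* and *ASF1B*, fell by 0.39 to 0.79, and of these *DUT* passed without Δ22 replicate 3. In bulk libraries, fewer cells in S phase and less RNA per cell cannot be told apart.

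In iLuc, with endo-EF, the replication list had a median log2 fold change of 0.48 against iEF, in WT-EF 0.11 and in DAF -0.51. The mitosis list had medians of 0.06, -0.28 and -0.62 in the same order. In WT-EF 10 of the 30 mitosis genes were called lower than in iEF and 0 higher, where 29.9% of all genes passed in either direction. The comparisons share the iEF libraries. Tested directly, none of the 33 replication genes and none of the 30 mitosis genes differed between Δ22 and DAF with edgeR at an adjusted p of 0.05, a comparison in which 1.33% of all genes passed.

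The promoters of the replication genes are shown because members that fell together can be searched for a shared motif. RefSeq windows of 300 bases (250 before to 50 after the transcription start, GRCh38.p14) were searched on both strands for the E2F sites TTTCCCGC and TTTGGCGC. They occurred in 7 of the 10 called replication genes with a window, in 15 of 28 replication genes with one (53.6%), and in 2.31% of all 27305 windows. The 250 bases before the start of *GINS2*, *MCM6* and *PCNA* are printed with the E2F letters, on either strand, in capitals. In *GINS2* the ETS letters CCGGAAG, read on the opposite strand, are in capitals as well.
GINS2, chr16:85688955-85689204, minus strand: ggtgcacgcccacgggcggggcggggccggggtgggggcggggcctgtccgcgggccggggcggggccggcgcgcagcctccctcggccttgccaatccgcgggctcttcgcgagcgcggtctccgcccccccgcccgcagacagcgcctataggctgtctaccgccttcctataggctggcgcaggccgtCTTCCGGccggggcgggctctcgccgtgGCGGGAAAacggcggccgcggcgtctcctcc
MCM6, chr2:135876444-135876693, minus strand: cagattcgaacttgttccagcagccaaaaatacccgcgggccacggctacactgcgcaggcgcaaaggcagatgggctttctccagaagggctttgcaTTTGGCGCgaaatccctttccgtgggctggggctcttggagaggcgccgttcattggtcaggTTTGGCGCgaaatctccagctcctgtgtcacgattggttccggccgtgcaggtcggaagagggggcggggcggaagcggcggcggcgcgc
PCNA, chr20:5126623-5126872, minus strand: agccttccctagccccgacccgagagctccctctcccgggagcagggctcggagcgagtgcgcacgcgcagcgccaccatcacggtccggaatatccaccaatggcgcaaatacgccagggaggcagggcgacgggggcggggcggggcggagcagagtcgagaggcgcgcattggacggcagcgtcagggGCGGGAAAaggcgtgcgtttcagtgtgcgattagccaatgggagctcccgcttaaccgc

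The same search for CCGGAAG, a high-affinity ETS site, found it in 27 of 172 genes called lower that had a window (15.7%), in 3 of 106 called higher (2.83%) and in 10.7% of all windows. Adjacent GGAA cores, GGAAGGAA, occurred in 4 of the 172 (2.33%), in 7 of the 106 (6.60%) and in 3.58% of all windows. A match is a run of letters and not a measured binding site. *RFC4*, which has a pair of CCGGAAG matches before its start, and *AQP1*, the 1 gene with GGAAGGAA among the 12 largest falls, 11 of which had a window, are printed with those letters, on either strand, in capitals.
RFC4, chr3:186806483-186806732, minus strand: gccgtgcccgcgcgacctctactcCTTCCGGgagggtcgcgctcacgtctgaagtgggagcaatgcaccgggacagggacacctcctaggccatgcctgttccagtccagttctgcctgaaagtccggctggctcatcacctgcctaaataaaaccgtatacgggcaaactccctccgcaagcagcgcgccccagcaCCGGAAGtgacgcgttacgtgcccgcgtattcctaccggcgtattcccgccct
AQP1, chr7:30911603-30911852, plus strand: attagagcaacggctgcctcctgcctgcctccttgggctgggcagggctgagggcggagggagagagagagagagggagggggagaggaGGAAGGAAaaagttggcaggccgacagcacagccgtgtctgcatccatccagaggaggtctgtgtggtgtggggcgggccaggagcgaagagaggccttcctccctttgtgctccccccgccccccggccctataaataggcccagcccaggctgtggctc

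Of 43 genes reported as activated by EWS/FLI, 3 rose, where 0.472% of all genes were called higher, and none fell, with a median of 0.35. At an unadjusted p under 0.05 there were 22 of the 43, a threshold for which no share of all genes is given. DESeq2 called 8 of the 43, and over all genes it called 463 higher and 615 lower. *BCL11B*, a transcription factor of the program, went from 18.6, 20.7 and 15.04 CPM in iEF to 23.7, 42.4 and 38.7 CPM in Δ22 (0.90 ± 0.18, adjusted p = 0.024, or 0.119 without Δ22 replicate 3), against 177 to 251 CPM in iLuc and 105 to 164 CPM in WT-EF. *NPY1R*, a neuropeptide Y receptor, went from 4.34, 9.98 and 4.74 CPM to 9.23, 22.01 and 13.97 CPM (1.25 ± 0.28, adjusted p = 0.0432, or 0.129 without Δ22 replicate 3), against 104 to 137 CPM in iLuc, and its groups overlapped. *ALDH1A1*, a retinaldehyde dehydrogenase, went from 1.92, 2.39 and 1.51 CPM to 3.98, 7.04 and 5.11 CPM (1.46 ± 0.26, adjusted p = 0.0143), against 6.82 to 13.4 CPM in iLuc. In direct comparison all 3 were lower in Δ22 than in iLuc (adjusted p = 6.55e-08, 6.59e-07 and 0.0112). *BCL11B* and *NPY1R* were also lower than in WT-EF (adjusted p = 2.72e-06 and 0.000319), which did not hold for *ALDH1A1* (adjusted p = 0.129).

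Of 30 genes reported as repressed by EWS/FLI, 2 rose in Δ22 (*IGFBP5* and *CDKN1A*) and 2 fell (*SPP1* and *SPRY1*), where 0.472% and 0.830% of all genes were called, and the median was -0.11. Without Δ22 replicate 3, *IGFBP5* was the 1 of these that passed. All 4 were lower in iLuc than in Δ22, at 28.3 to 42.1 CPM for *IGFBP5*, 14.3 to 18.03 CPM for *CDKN1A*, 0.388 to 0.489 CPM for *SPP1* and 3.90 to 4.69 CPM for *SPRY1*. The genes that the study followed as EWS/FLI targets did not pass: 0 of 12 were called by edgeR, 3 of 12 had an unadjusted p under 0.05 and DESeq2 called 0. *NKX2-2* was at 0.946, 1.01 and 0.873 CPM in iEF and 1.05, 0.991 and 0.572 CPM in Δ22, against 4.31 to 5.89 CPM in iLuc. *NR0B1* was at 3.94, 8.67 and 4.51 CPM in iEF and 3.60, 9.78 and 18.7 CPM in Δ22, a spread carried by Δ22 replicate 3. *LOX* was at 405, 266 and 422 CPM in iEF and 344, 256 and 311 CPM in Δ22, against 2.89 to 4.31 CPM in iLuc, and *TGFBR2* was at 134 to 148 CPM in iEF and 140 to 228 CPM in Δ22. The other 8, *GLI1*, *SOX2*, *FCGRT*, *GSTM4*, *IGFBP3*, *HOXD10*, *HOXD11* and *HOXD13*, had log2 fold changes between -0.45 and 0.62. Of 9 Ewing sarcoma markers tested, *FLI1* and *BCL11B* passed, where 0.472% of all genes were called higher.

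Among 26 ETS factors tested, 2 besides the construct's own gene passed, where 1.30% of all genes passed. *ETV3*, a repressor of the family, rose from 65.5, 76.9 and 73.0 CPM to 81.4, 104 and 123 CPM (0.51 ± 0.11, adjusted p = 0.031, or 0.183 without Δ22 replicate 3), and *ELK3*, a partner of serum response factor, fell from 122, 117 and 103 CPM to 95.3, 77.6 and 90.3 CPM (-0.38 ± 0.09, adjusted p = 0.0461, or 0.0906 without Δ22 replicate 3). The groups were separate for both. No immediate early or AP-1 factor passed among 22 tested with edgeR, 3 had an unadjusted p under 0.05 and DESeq2 called 2. Among 25 cholesterol synthesis genes *ACAT2*, an acetyl-CoA acetyltransferase, fell from 49.5, 84.6 and 57.7 CPM to 41.5, 38.8 and 35.0 CPM (-0.70 ± 0.16, adjusted p = 0.04, or 0.198 without Δ22 replicate 3), and the list median was -0.09.

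The level of a gene called in Δ22 was often unlike its level in WT-EF. Of the 136 genes higher in Δ22 than in iEF, 72 were also higher in Δ22 than in WT-EF and 31 were lower, in a comparison in which 30.3% of all genes passed. Against iLuc, where 43.9% of all genes passed, 83 were higher in Δ22 and 30 lower. Of the 239 lower genes, 99 were lower and 78 higher in Δ22 than in WT-EF, and 129 were lower and 75 higher than in iLuc. Against DAF, where only 1.33% of all genes passed, 118 of the 136 and 218 of the 239 did not pass. With so few passing genes in that comparison, these counts do not show that the levels were equal or nearer. Those that did pass were 2 higher and 16 lower in Δ22 among the 136, and 20 higher and 1 lower among the 239. The genes were chosen on the same Δ22 libraries, so these counts are a description. *SPP1* (log2 difference 2.28, adjusted p = 0.00285), *AQP1* (1.42, adjusted p = 0.02) and *EGFR* (1.39, adjusted p = 0.0146) were higher in Δ22 than in DAF, and *TFEC* (-1.72, adjusted p = 0.0107) and *ACVRL1* (-1.71, adjusted p = 0.00633) were lower.

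Δ22 replicate 3 carried an interferon and inflammatory response that the other Δ22 replicates did not. For each gene averaging at least 50 counts over the 6 libraries (12966 genes), the excess of that library was taken as the log2 CPM difference from iEF within replicate number 3 minus the mean difference within numbers 1 and 2. Interferon-stimulated genes, which cells switch on through STAT and IRF factors to resist viruses, made up 16 of the 30 largest excesses and 34 of the 100 largest, and 56 of the 12966 genes. The 10 largest belonged to *CXCL10* (a chemokine that draws T cells), *OAS2* (a sensor of double-stranded RNA), *XAF1*, *MX2*, *MX1* (both antiviral GTPases), *TRIM22*, *TNFSF10* (the death ligand TRAIL), *IFI27*, *GBP4* (a guanylate-binding protein) and *VCAM1* (an adhesion molecule). Since they were chosen on this excess, their values are a description, with no test.

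*CXCL10* was at 1.67, 3.34 and 78.8 CPM in Δ22 and at 1.498, 9.71 and 1.92 CPM in iEF. *OAS2* was at 3.37, 5.40 and 97.8 CPM in Δ22 and at 11.1, 26.1 and 7.33 CPM in iEF. *MX1* was at 15.2, 25.3 and 315 CPM in Δ22 and at 41.0, 84.5 and 29.8 CPM in iEF. In each of these genes Δ22 replicate 3 was the highest of the 6 libraries by far, while replicate 2, and for *OAS2* and *MX1* also replicate 1, lay below its iEF partner. That held over the list: 50 and 53 of the 58 interferon-stimulated genes were lower in Δ22 than in iEF within replicate numbers 1 and 2, and 58 of 58 were higher within number 3. The within-number medians were -0.54, -0.75 and 2.04 on the log2 scale. The fitted median of 0.20 over the list therefore joined opposite signs, and it was -0.43 without Δ22 replicate 3. No member passed in Δ22 against iEF with edgeR, with or without that library. At an unadjusted p under 0.05 there were 3, and DESeq2 called 0.

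**Figure D4:**
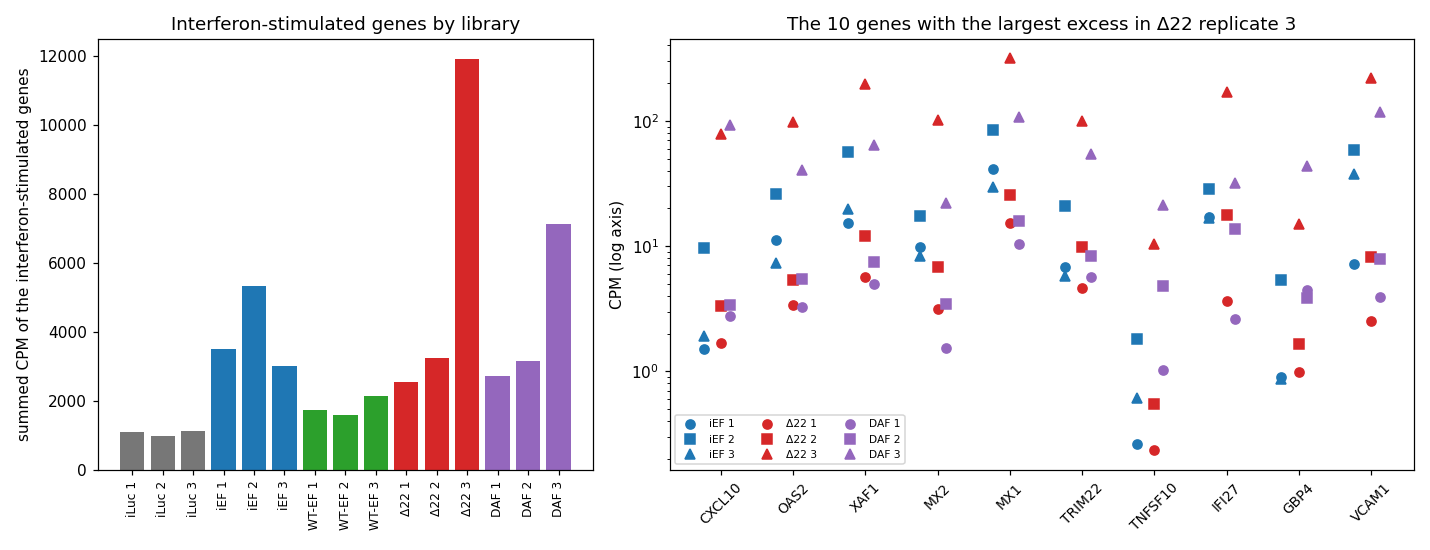
Left, summed CPM of 58 interferon-stimulated genes in each library; right, CPM on a log axis of the 10 genes with the largest excess in Δ22 replicate 3. Δ22 replicate 3 reaches 11900 CPM and DAF replicate 3 reaches 7119 CPM, above the other 13 libraries, which lie between 971 and 5331 CPM.

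DAF replicate 3 shared the rise. Its summed level was 7119 CPM against 2720 and 3166 CPM in DAF replicates 1 and 2, and all 58 genes were higher in it than in both. Replicate 3 of the other conditions did not stand out in the same way, at 3010 CPM in iEF, 2136 CPM in WT-EF and 1123 CPM in iLuc. *CXCL10* was at 93.4 CPM in DAF replicate 3, *MX1* at 107 CPM and *GBP4* at 43.6 CPM. *IFNB1*, which encodes interferon beta, was at 0.0586, 0.235 and 1.68 CPM in Δ22, at 0.184, 0.303 and 0.349 CPM in iEF and at 0.105, 0.105 and 0.134 CPM in DAF. The 20 interferon ligands, receptors and sensors tested gave no call with edgeR, 2 at an unadjusted p under 0.05 and 0 with DESeq2, and *CGAS* and *STING1* were at 13.9 to 27.2 CPM and 54.2 to 75.4 CPM in Δ22.

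Inflammatory genes that NF-kappaB induces were highest in the same library. All 33 tested had their highest level of the 15 libraries in Δ22 replicate 3, and their summed level was 2233, 2488 and 8676 CPM in Δ22 and 2044 to 2788 CPM in iEF. DAF replicate 3 shared part of this rise, at 3924 CPM against 1773 and 1579 CPM in DAF replicates 1 and 2. *CCL2*, a monocyte chemokine, was at 26.1, 97.3 and 894 CPM in Δ22, and *ICAM1*, an adhesion molecule, at 10.6, 20.6 and 235 CPM. In DAF *ICAM1* was at 14.6, 22.4 and 205 CPM. The list median was 0.73 with that library and -0.01 without it. The 3 members called were *IL1B*, *PTGS2* and *BCL2A1*, where 0.472% of all genes were called higher. *IL1B*, which encodes interleukin-1 beta, was at 10.2, 16.0 and 16.4 CPM in iEF and at 36.0, 58.3 and 408 CPM in Δ22, and *PTGS2*, the inducible cyclooxygenase, was at 101, 62.4 and 97.8 CPM in iEF and at 220, 148 and 450 CPM in Δ22. Both were higher in every Δ22 library than in any iEF library, with log2 fold changes of 2.96 ± 0.66 and 1.58 ± 0.30 (adjusted p = 0.0403 and 0.0174). Without Δ22 replicate 3 they were at 1.97 and 1.15 and no longer passed (adjusted p = 0.175 and 0.0935). Antigen presentation genes moved with the interferon list, with within-number medians of -0.09, 0.01 and 1.14 over 26 genes, no call with edgeR, 5 at an unadjusted p under 0.05 and 0 with DESeq2.

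**Figure D5:**
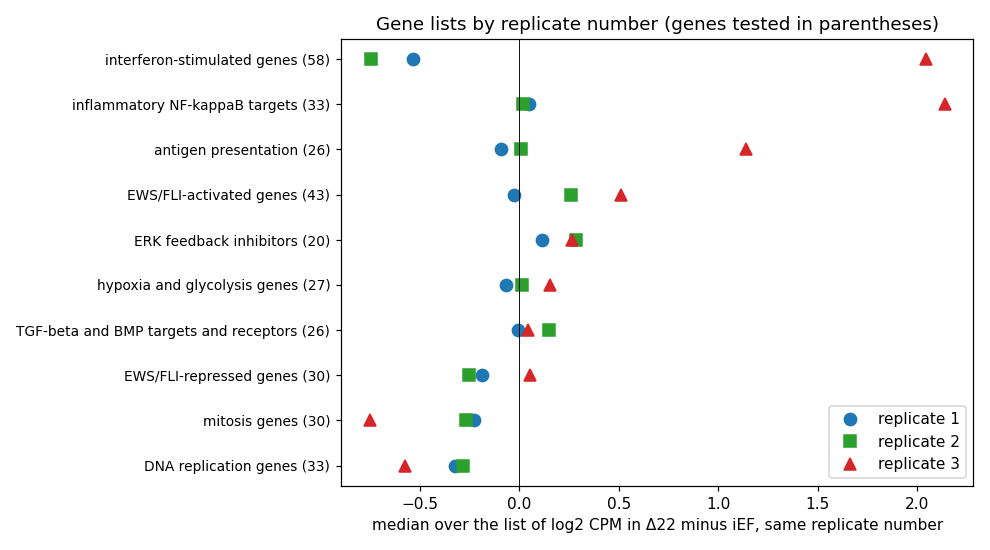
Median difference in log2 CPM between Δ22 and iEF of the same replicate number for 10 gene lists (circle, square and triangle for replicates 1, 2 and 3). The interferon, NF-kappaB and antigen presentation lists reach 2.04, 2.14 and 1.14 in replicate 3 and lie near or below 0 in the other replicates, and the replication and mitosis lists lie below 0 in all 3.

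Interferon-stimulated response elements were searched in the same promoter windows, as GAAA, any 2 bases and GAAA again, on both strands. The letters occurred in 28 of 46 interferon-stimulated genes with a window (60.9%), in 6 of 7 of the 10 largest excesses with a window (85.7%), and in 3.65% of all windows. *CXCL10*, *IFI27* and *TNFSF10*, from those 10, are printed with the match on either strand in capitals.
CXCL10, chr4:76023498-76023747, minus strand: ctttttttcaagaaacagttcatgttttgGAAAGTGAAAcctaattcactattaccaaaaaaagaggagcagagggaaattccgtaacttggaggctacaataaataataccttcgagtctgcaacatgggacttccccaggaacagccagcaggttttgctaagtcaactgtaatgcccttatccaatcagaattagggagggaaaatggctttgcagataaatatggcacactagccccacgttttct
IFI27, chr14:94110486-94110735, plus strand: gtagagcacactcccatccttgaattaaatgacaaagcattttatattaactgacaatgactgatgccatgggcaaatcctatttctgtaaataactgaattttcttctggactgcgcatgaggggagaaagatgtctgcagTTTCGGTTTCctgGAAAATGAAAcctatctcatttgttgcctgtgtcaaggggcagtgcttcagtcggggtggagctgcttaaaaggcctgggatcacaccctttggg
TNFSF10, chr3:172523431-172523680, minus strand: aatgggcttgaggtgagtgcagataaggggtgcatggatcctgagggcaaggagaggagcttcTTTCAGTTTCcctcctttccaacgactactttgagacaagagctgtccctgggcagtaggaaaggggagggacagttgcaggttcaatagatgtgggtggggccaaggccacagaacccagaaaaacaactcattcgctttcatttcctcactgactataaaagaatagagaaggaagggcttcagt

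Relative to its iEF partner, Δ22 replicate 3 also had lower replication and mitosis genes than the other Δ22 replicates, as the within-number medians show. Summed replication levels were 3962, 3367 and 3374 CPM in Δ22 and 4932, 4288 and 5192 CPM in iEF, so replicate 3 was not below replicate 2 in its own level. Summed mitosis levels were 7598, 6269 and 5410 CPM in Δ22 and 8867, 7526 and 9327 CPM in iEF. Whether the interferon and cell cycle values of that library are related was not tested. Over the 12966 genes, 144, 547 and 770 differed by over 2-fold from iEF within replicate numbers 1, 2 and 3, and in number 3 537 of the 770 were higher in Δ22. Genes that passed both with and without that library included *FLI1* (adjusted p = 0.00706 without it), *AQP1*, *IL17RD*, *EGFR*, *NR3C2*, *IGFBP5*, *ALDH1A1* (0.0385), *CA12* (0.0125), *ITGA8* (0.0395), *DRD1* (0.0289), *MCM6* and *NID1*.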

How the data were processed

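RNA-seq libraries of A673 cells in 5 conditions, 3 libraries each, were used, with condition and replicate number from the labels. The authors prepared libraries from 2.5 µg of total RNA, aligned reads to hg19 with STAR (2.5.1b in the submitters' processing notes) and used htseq-count for gene counts; strand settings are not given in the sources used here. The deposited counts are whole numbers per gene, not normalized. The authors also deposited estimated counts adjusted with ComBat over replicate sets, used here as an alternative after rounding. A deposited table of the authors' own fold changes, standard errors and adjusted p-values was not used, nor were 3 columns of other samples.

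The 57820 identifiers all name genes; 43521 matched a symbol. Total counts ran from 28659475 to 41859880. The 28793 genes with a mean count of 1 or more were tested in R 4.3.3 with edgeR 4.0.16 (quasi-likelihood, TMM) in 1 model of all 15 libraries with replicate number as a block, and p-values were adjusted by Benjamini-Hochberg over all genes. SE is the log2 fold change over the square root of F. The script was tested on simulated data. CPM are TMM-scaled; log2 CPM used a prior count of 2. The block follows the authors' treatment of replicate sets as batches. Deviations from group means of same-numbered Δ22 and iEF libraries correlated at 0.642, 0.153 and 0.066 for numbers 1 to 3. Δ22 replicate 3 correlated more with iEF replicate 2 (0.279) than with its own number, so the numbers do not clearly pair these libraries. Alternatives used DESeq2 1.42.0, other filters, scalings and left-out libraries.

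Named genes were *FLI1*, *BCL2A1*, *IL17RD*, *AQP1*, genes named in the study, the 12 largest increases and 12 largest decreases (average of at least 50 counts, same direction in every replicate number), called members of 22 gene lists and further members by level, and the 10 largest excesses in Δ22 replicate 3. Members and lists were chosen with earlier results of these data known. Coordinates are GRCh37 (GENCODE); promoters are RefSeq GRCh38.p14. Some genes counted in the lists are not reported here by name.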

Additional observations from a re-analysis of the deposited data

How the results depend on the processing

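The number of genes that passed depended strongly on the settings. None of the 93 called named genes reversed in any of 28 alternatives. They were called on the same libraries, and the largest changes were also chosen for the same direction in every replicate number. Few could therefore reverse, and the absence of reversals does not measure how stable the directions are. Genes higher and lower in Δ22 numbered 463 and 615 with DESeq2 (168 over 2-fold higher), 490 and 609 with DESeq2 on the ComBat-adjusted counts (134 over 2-fold higher), and 784 and 730 with no filter on low counts (346 and 132 over 2-fold). With the replicate block on the 6 libraries alone they numbered 231 and 289 (119 over 2-fold higher). With no replicate block they were 50 and 125 in 15 libraries (31 and 32 over 2-fold) and 17 and 37 in 6 libraries (14 and 20). Leaving out Δ22 replicate 3 and DAF replicate 3 together, an alternative chosen after seeing the data, gave 26 and 60 (21 and 28 over 2-fold). A test against a 2-fold change (edgeR's glmTreat) called 0 higher and 0 lower, with 346 and 134 at an unadjusted p under 0.05.

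With single libraries or whole replicate numbers left out, genes higher ranged from 0 to 409, lower from 0 to 552, over 2-fold higher from 0 to 178 and over 2-fold lower from 0 to 113. The 0 came without replicate 2, where 1039 and 1382 genes had an unadjusted p under 0.05 and DESeq2 called 177, and the 409 and 552 came without WT-EF replicate 3. Without iEF replicate 1, 24 and 66 passed, and without iEF replicate 3, 22 and 89. *FLI1* ranged from 1.02 to 1.20 on the log2 scale in these fits and passed in 27 of 28 alternatives (adjusted p = 0.134 without replicate 2). The median of the interferon-stimulated genes ranged from -0.66 to 0.86. The cause of these changes was not tested.

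Genes that did not pass changed sign: *HOXD10* (-0.15 to 0.12; 0.115 without iEF replicate 2, 0.006 without Δ22 replicate 1, 0.009 without replicate 2), *HOXD11* (-0.10 to 0.10; -0.096 without Δ22 replicate 2, -0.040 without replicate 2), *LOX* (-0.44 to 0.07; 0.068 without iEF replicate 3), *SOX2* (-0.095 to 0.50, the lowest without replicate 3) and *NKX2-2* (-0.35 to 0.15; 0.120 without Δ22 replicate 3, 0.076 without replicate 3, 0.150 without both Δ22 and DAF replicate 3).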
